A study of Bos taurus with 8 samples.

Results

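The genes described here encode the channels that let calcium into the cytosol and the pumps that take it out again. Of the 30983 genes in the gene table, 69 have names of voltage-gated calcium channel subunits, TRP channels, ryanodine and inositol trisphosphate receptors, ORAI and STIM proteins or calcium ATPases, and these 69 are the members. The rule reads gene names and no measured value, but it was set with earlier results of these data known. The name pattern also takes in TRPC4AP, an adaptor protein named after TRPC4, and TRPC5OS, a gene on the opposite strand of TRPC5, neither of which is a channel. They were measured by RNA-seq of poly(A) RNA in testicular lobules of Chinese Red Steppes cattle, with 3 mature testes from bulls slaughtered at 24 months and 3 immature testes from calves castrated at 1 day, 1 animal per library and no treatment or engineered allele. Because calves and bulls were sampled differently, age and mode of collection cannot be told apart.

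Calcium is kept low in the cytosol of every cell and is let in by stimulus. Voltage-gated channels open when the membrane is depolarized, their alpha1 subunit forms the pore, and their alpha2delta and beta subunits carry the pore to the membrane and tune it. TRP channels open to chemical, thermal or lipid signals. Ryanodine and inositol trisphosphate receptors release calcium from the endoplasmic reticulum, and when that store is empty the sensors STIM1 and STIM2 open ORAI channels in the plasma membrane. Pumps then clear the ion: SERCA (ATP2A) into the endoplasmic reticulum, PMCA (ATP2B) out of the cell and SPCA (ATP2C) into the Golgi. In the testis, calcium is best known for its part in the motility of sperm, in capacitation and in the acrosome reaction.

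Library totals ran from 14139087 to 15846257 counts. Levels are given as CPM, counts scaled by library total and the TMM factor and not divided by transcript length, so they are compared between ages and not between genes. Where a member's values are listed, they are those of replicates 1, 2 and 3 of each age, which are different animals. A call in either direction needed an absolute log2 fold change over 1 and, in edgeR, a Benjamini-Hochberg adjusted p below 0.05. The tissue was checked with marker genes: 10 spermatid genes summed to 9621 to 15257 CPM in mature libraries, against 11.3 to 12.4 CPM in immature libraries, and 9 Sertoli cell genes to 430 to 507 CPM in mature libraries, against 5974 to 7785 CPM in immature libraries. Of the 9 Sertoli cell genes 8 were called lower and 1, CLDN11, was called higher. AMH and INHA, with immature means of 2724 and 3090 CPM, made up most of the immature sum. In whole tissue, fewer cells of a type and less RNA per cell cannot be told apart. Of the immature libraries 2 stood apart: replicate 1 had 194 genes, and replicate 3 had 170, at more than 3 times their level in either other library of that age, and no other library had more than 21 such genes. For its age, immature replicate 1 was rich in epithelial genes, with 469 CPM of WFDC2 (6.99 and 0.396 CPM in immature replicates 2 and 3) and 41.0 CPM of CDH1 (2.78 and 2.91 CPM). The 8 epididymal and duct epithelium markers in the table summed to 669, 24.1 and 53.1 CPM in the immature libraries. In the mature libraries they summed to 260 to 301 CPM. Of the 5 tested 2 were higher and 2 lower. Among the members, only TRPV4 and TRPV6 in immature replicate 1, CACNA2D3 in immature replicate 3 and TRPC7 in mature replicate 3 were that far above both other libraries of their age at 1 CPM or more.

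All 69 members had at least 1 count, and 60 passed the filter on low counts. Some members with few counts in 1 age passed it only through the age in which they were higher, which favours their call. Among them were CACNG2, TRPC2, TRPC7, TRPV5, CACNA1F, ATP2B3, CACNA1I, CACNA1C and TRPA1. CACNA2D3 was a further such gene, with few counts in immature replicates 1 and 2. Of these 60, 19 were called higher and 17 lower in mature testis, together 60.0%, where 62.0% of all 19972 tested genes were called (31.7% higher and 30.4% lower). The share of members called was thus close to that of all genes. The fold changes centred near 0, with a median log2 value of −0.08 over the members and −0.04 over all tested genes, and the median size was 1.24 over the members and 1.47 over all tested genes. The 3 libraries of each age did not overlap in 48 of the 60 members, or 80.0%, against 81.7% of all tested genes. Very large changes were few, with 3 members past a log2 size of 4 (TRPC2, TRPC7 and TRPV5, all higher), or 5.0%, against 12.3% of all tested genes. Calls in both directions were made in the alpha1, gamma, TRPA and TRPV, TRPM and release channel families, as the plot of fold changes by family shows. The counts by family below rest on few genes and are to be read beside the shares of all tested genes given here.

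**Figure D1:**
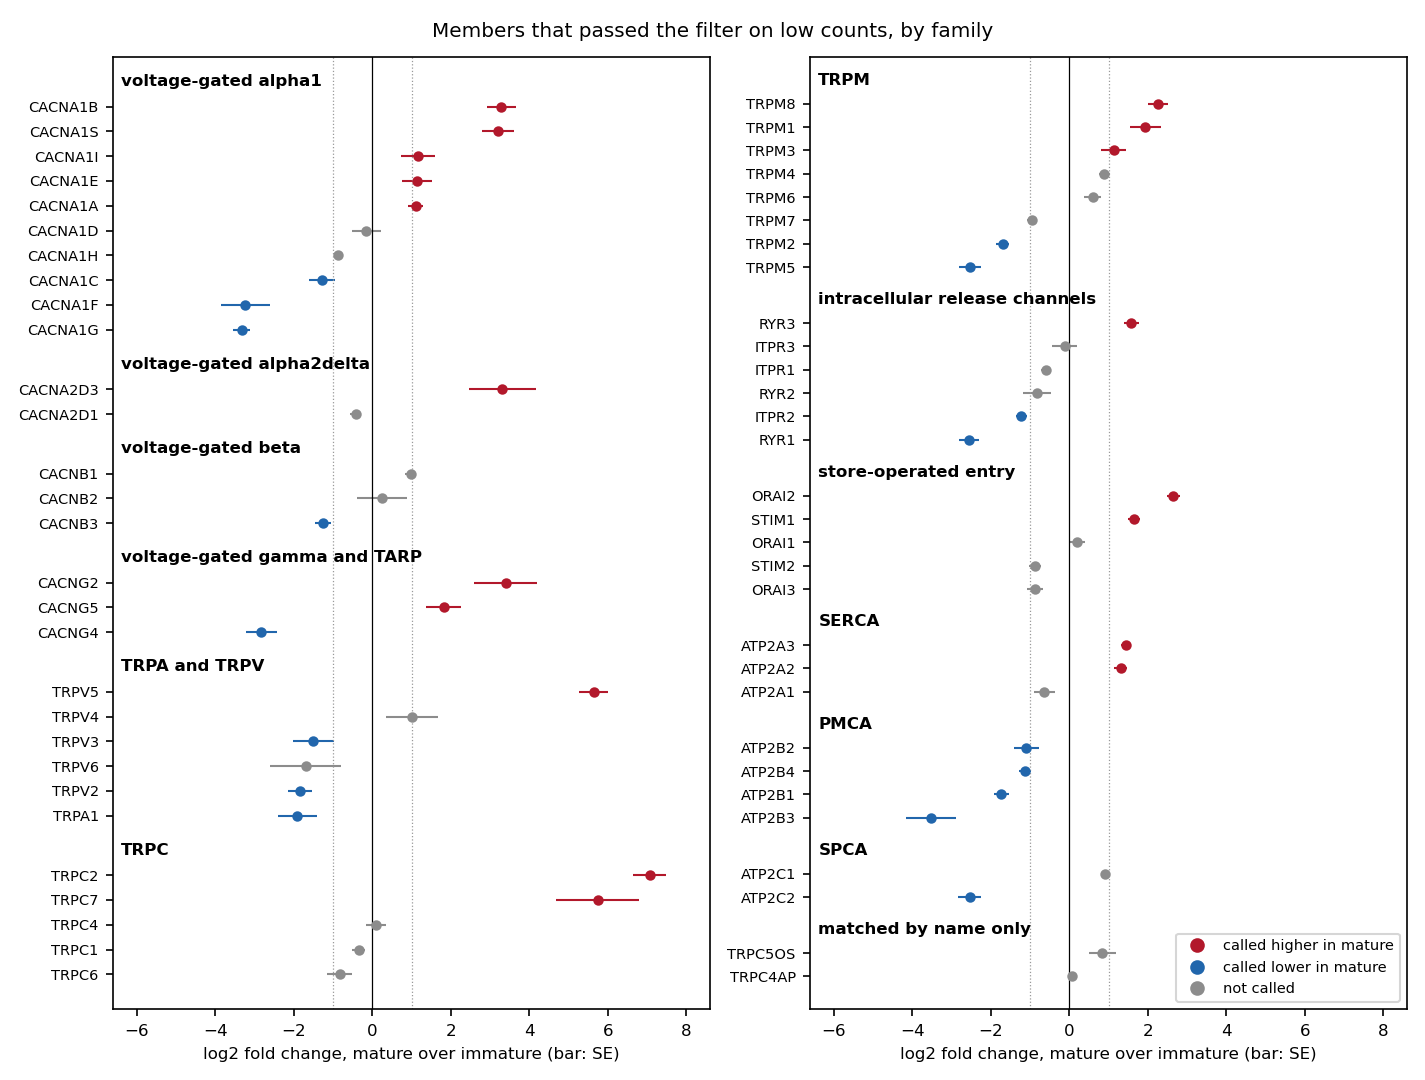
Log2 fold change of mature over immature testis (x axis) with its standard error for 59 of the 60 members that passed the filter on low counts, grouped by family. Dotted lines mark the fold threshold of 1 on either side. Nearly every family holds members on both sides of 0, while the 4 PMCA pumps all lie to the left. Of these, ATP2B3 passed the filter only through its immature libraries.

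Of the 3 SERCA genes 2 rose, and all 4 PMCA genes fell in mature testis, where 31.7% of all tested genes rose and 30.4% fell. The PMCA gene ATP2B3 passed the filter only through its immature libraries, which favours its call, and the call of ATP2B2 was lost without some single libraries. ATP2A2, the SERCA form found in most tissues, had 119, 134 and 136 CPM in the mature libraries, against 41.9, 51.7 and 64.1 CPM in the immature libraries (log2 fold change 1.30, SE 0.16, edgeR adjusted p = 0.000107). ATP2A3, known from blood and epithelial cells, had 128, 108 and 135 CPM in the mature libraries, against 43.9, 49.0 and 43.4 CPM in the immature libraries (log2 fold change 1.44, SE 0.13, edgeR adjusted p = 1.12e-05). Both genes were higher in every mature library than in any immature one. ATP2A1, the pump of fast skeletal muscle, had 9.63, 5.16 and 5.58 CPM in the mature libraries, against 11.8, 9.51 and 10.4 CPM in the immature libraries and was not called (−0.64, SE 0.27). Mature replicate 1 lay within the immature range. The summed level of the 3 SERCA genes was 260.0 ± 15.0 CPM in mature testis and 109 ± 10.4 CPM in immature testis (SD, n = 3 each).

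Among the PMCA genes, ATP2B1, the form made in most cells, had 45.3, 43.6 and 42.6 CPM in the mature libraries, against 195, 131 and 112 CPM in the immature libraries (log2 fold change −1.73, SE 0.20, edgeR adjusted p = 6.59e-05). The immature values were spread over a wider range than the mature ones, with replicate 1 the highest. ATP2B4, which in mouse is the main pump of the sperm tail and is needed for motility, had 38.1, 34.3 and 38.6 CPM in the mature libraries, against 83.6, 93.4 and 67.3 CPM in the immature libraries (log2 fold change −1.14, SE 0.15, edgeR adjusted p = 0.000123). Every mature library lay below every immature one for both genes. ATP2B2 and ATP2B3, forms best known from neurons, were low at both ages. ATP2B2 had 1.94, 3.28 and 1.93 CPM in the mature libraries, against 6.22, 5.11 and 4.03 CPM in the immature libraries (−1.10, SE 0.32, edgeR adjusted p = 0.012), and its log2 fold change fell short of the call without mature replicate 1 (−0.91), mature replicate 3 (−0.91, adjusted p = 0.0632 with edgeR) or immature replicate 1 (−0.95). ATP2B3 had 2, 0 and 2 counts in the mature libraries, against 19, 12 and 19 counts in the immature libraries (log2 fold change −3.53, SE 0.64). The 10 neural and Schwann cell markers summed to 81.9 to 128 CPM in mature libraries and 219.5 to 321 CPM in immature libraries, 4 of the 9 tested were lower and 0 higher, and their part in the ATP2B2 and ATP2B3 differences was not tested. The 4 genes summed to 83.3 ± 2.11 CPM in mature testis and 233 ± 50.7 CPM in immature testis (SD, n = 3 each).

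Of the 2 SPCA pumps of the Golgi, which also carry manganese, 1 fell and 1 was not called. ATP2C2, known from secretory epithelia, fell, with 7.06, 6.90 and 5.58 CPM in the mature libraries, against 53.1, 37.2 and 24.0 CPM in the immature libraries (log2 fold change −2.55, SE 0.29, edgeR adjusted p = 6.53e-05). Its highest value was in immature replicate 1, and without that library the log2 fold change was −2.24. The part of epithelium in the ATP2C2 difference was not tested. ATP2C1, the widely expressed form, had 254, 281 and 279.5 CPM in the mature libraries, against 134, 159 and 139 CPM in the immature libraries, so the ages did not overlap, but at 0.91 (SE 0.11, edgeR adjusted p = 7.96e-05) it stayed under the fold threshold, which it passed without mature replicate 1 (1.02), with RLE factors (1.00) and in DESeq2. ATP2C1 held 97.6% ± 0.379 of the counts of the pair in mature testis and 79.3% ± 6.96 in immature testis (SD, n = 3 each).

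Of the 5 genes of store-operated entry 2 rose and 0 fell, where 31.7% of all tested genes rose and 30.4% fell. STIM1, the main sensor of calcium in the store, had 159, 154 and 153 CPM in the mature libraries, against 42.6, 46.9 and 60.1 CPM in the immature libraries (log2 fold change 1.64, SE 0.14, edgeR adjusted p = 1.16e-05). STIM2, a sensor that responds to smaller losses, had 16.8, 16.3 and 14.0 CPM in the mature libraries, against 28.2, 32.0 and 26.6 CPM in the immature libraries. It lay lower in every mature library, but at −0.88 (SE 0.15, edgeR adjusted p = 0.000606) it did not reach the fold threshold. Among the pore proteins ORAI2 rose, with 55.4, 48.5 and 56.5 CPM in the mature libraries, against 9.63, 8.86 and 7.13 CPM in the immature libraries (log2 fold change 2.64, SE 0.16, edgeR adjusted p = 1.31e-06), the largest fold change of this family. ORAI3, found in mammals only, had 17.9, 26.4 and 27.7 CPM in the mature libraries, against 48.7, 47.9 and 36.3 CPM in the immature libraries and was not called at −0.88 (SE 0.20, edgeR adjusted p = 0.00339; called without immature replicate 3, at −1.01). ORAI1, the pore of the classic store-operated current of lymphocytes, had 13.9, 16.3 and 12.3 CPM in the mature libraries, against 13.2, 12.9 and 10.8 CPM in the immature libraries, and the ages overlapped. Of all counts of the 5 genes, STIM1 held 59.2% ± 1.25 in mature testis and 34.7% ± 6.92 in immature testis, and ORAI2 held 20.3% ± 1.57 in mature testis and 5.93% ± 0.852 in immature testis (SD, n = 3 each). STIM2 went the other way, with 5.97% ± 0.561 in mature testis and 20.1% ± 1.33 in immature testis. The 5 genes together reached 263 ± 0.941 CPM in mature testis and 144 ± 4.05 CPM in immature testis.

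**Figure D2:**
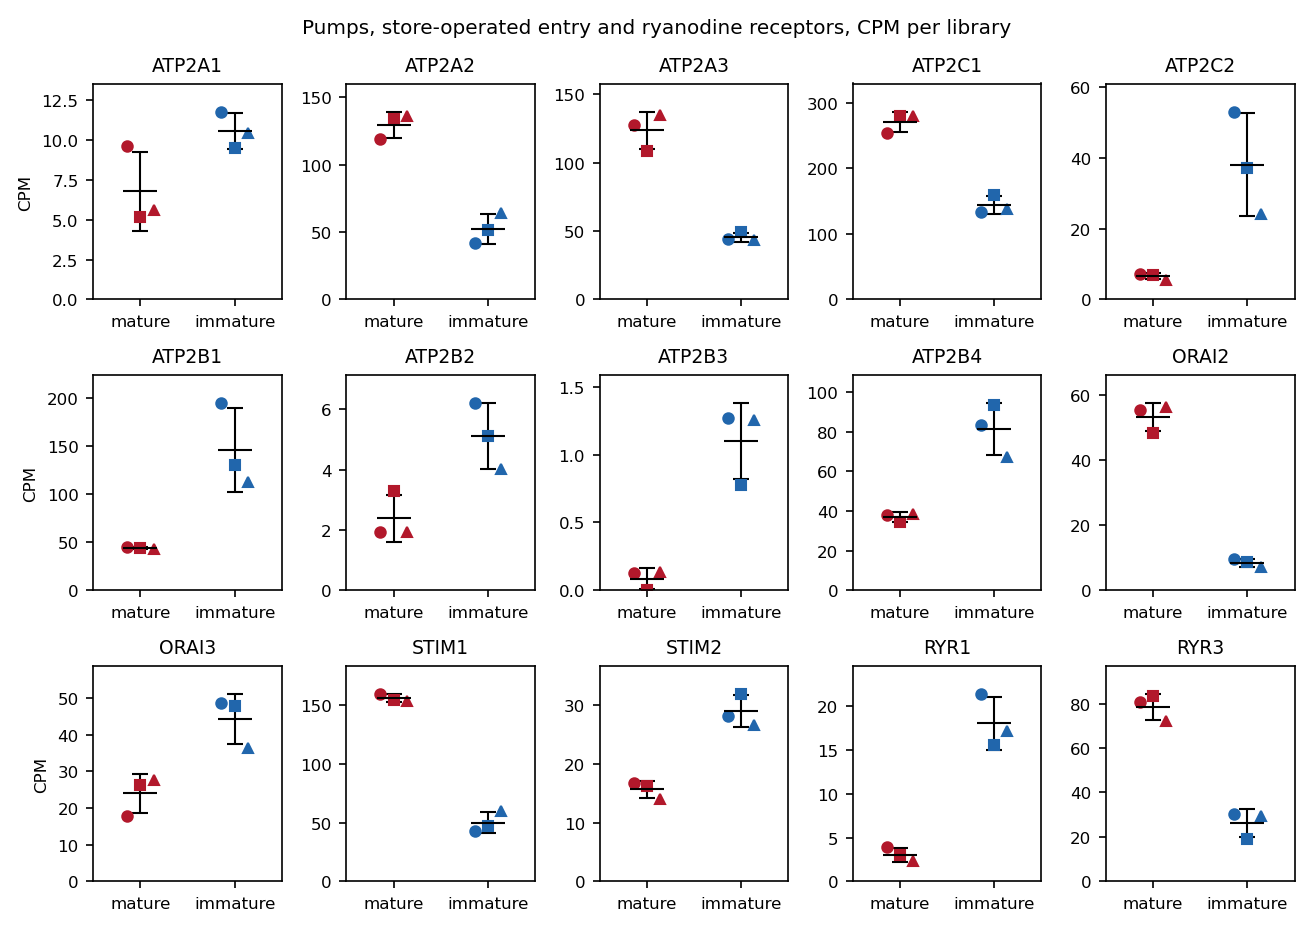
CPM (y axis, from 0) of 15 pump, store-entry and ryanodine receptor genes in the 3 mature (left, red) and 3 immature (right, blue) libraries, with circles, squares and triangles for replicates 1, 2 and 3 and black bars for the mean and SD. ATP2A2, ATP2A3, ORAI2, STIM1 and RYR3 are higher in all mature libraries, and the 4 ATP2B genes, ATP2C2 and RYR1 are lower in all of them.

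Of the 6 release channels of the endoplasmic reticulum 1 rose and 2 fell, where 31.7% of all tested genes rose and 30.4% fell. RYR3, the ryanodine receptor of brain and many other tissues, had 80.5, 83.3 and 72.0 CPM in the mature libraries, against 30.4, 19.3 and 29.3 CPM in the immature libraries (log2 fold change 1.58, SE 0.18, edgeR adjusted p = 6.8e-05). RYR1, the release channel of skeletal muscle, had 3.88, 3.01 and 2.27 CPM in the mature libraries, against 21.4, 15.5 and 17.2 CPM in the immature libraries (log2 fold change −2.56, SE 0.25, edgeR adjusted p = 2.41e-05). Here the order was the reverse, and neither gene overlapped between the ages. The 16 markers of skeletal muscle summed to 52.6 to 61.9 CPM in mature libraries and 64.1 to 66.0 CPM in immature libraries. Of the 12 tested 3 were lower and 1, MYLPF, was higher. MYLPF had 6.56, 6.23 and 10.8 CPM in the mature libraries, against 0.0669, 0.453 and 0.132 CPM in the immature libraries. TNNI2 and CHRNA1, which were not tested, were at 0 counts in every mature library. CHRNA1 had 150, 3 and 27 counts in the immature libraries, most of them in replicate 1. The part of muscle in the RYR1 difference was not tested. RYR2, the receptor of heart muscle, had 16.8, 33.0 and 15.6 CPM in the mature libraries, against 24.1, 45.9 and 45.4 CPM in the immature libraries and overlapped between the ages (−0.82, SE 0.36), although it was called lower without mature replicate 2 (−1.22) and without immature replicate 1 (−1.08). Its row is annotated as a ryanodine receptor 2-like gene.

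Of the 3 inositol trisphosphate receptors 1 was called. ITPR2 fell, with 28.6, 30.4 and 22.9 CPM in the mature libraries, against 60.5, 64.0 and 67.5 CPM in the immature libraries (log2 fold change −1.23, SE 0.14, edgeR adjusted p = 6.06e-05). ITPR1, the receptor first described in Purkinje neurons, had 89.5, 88.6 and 74.7 CPM in the mature libraries, against 142, 115 and 123 CPM in the immature libraries, lower in each mature library but under the fold threshold (−0.59, SE 0.13, edgeR adjusted p = 0.00278). ITPR3 had 189.7, 183 and 188 CPM in the mature libraries, against 158, 322 and 132 CPM in the immature libraries. Its mature libraries lay close together, while immature replicate 2 stood far above both other immature libraries, so that the ages overlapped (−0.13, SE 0.32). RYR3 held 19.5% ± 0.322 of the counts of the 6 genes in mature testis and 5.78% ± 2.14 in immature testis (SD, n = 3 each).

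Of the 10 alpha1 genes, which all passed the filter, 5 rose and 3 fell, where 31.7% of all tested genes rose and 30.4% fell. CACNA1F and CACNA1C passed the filter only through their immature libraries and CACNA1I only through its mature ones, which favours their calls. CACNA1B, the N-type channel of nerve endings, had 33.3, 48.3 and 43.9 CPM in the mature libraries, against 6.95, 2.72 and 3.17 CPM in the immature libraries (log2 fold change 3.29, SE 0.36, edgeR adjusted p = 5.99e-05). CACNA1S, the L-type channel known as the voltage sensor of skeletal muscle, had 20.1, 35.2 and 35.5 CPM in the mature libraries, against 5.35, 2.52 and 1.98 CPM in the immature libraries (log2 fold change 3.20, SE 0.41, edgeR adjusted p = 0.000148). The mature libraries lay above the immature ones for both, and the immature values were highest in replicate 1. In the other direction CACNA1G, a T-type channel that opens at low voltage, had 6.63, 6.56 and 4.34 CPM in the mature libraries, against 53.2, 71.1 and 52.2 CPM in the immature libraries (log2 fold change −3.33, SE 0.22, edgeR adjusted p = 2.06e-06). CACNA1F, the L-type channel of the retina, also fell, at low levels, with 0.125, 0.0670 and 0.207 CPM in the mature libraries, against 1.27, 0.647 and 2.05 CPM in the immature libraries (−3.24, SE 0.62). CACNA1H, a further T-type channel, had 143, 156 and 138 CPM in the mature libraries, against 250.3, 281 and 275 CPM in the immature libraries. It was lower in every mature library but under the fold threshold (−0.88, SE 0.10, edgeR adjusted p = 6.88e-05). CACNA1D, an L-type channel of endocrine and pacemaker cells, overlapped between the ages, with 21.9, 21.4 and 21.7 CPM in the mature libraries, against 40.0, 19.6 and 12.9 CPM in the immature libraries. The 10 genes together summed to 277 ± 19.8 CPM in mature testis and 377 ± 13.8 CPM in immature testis (SD, n = 3 each). Within that sum CACNA1B and CACNA1S held 15.0% ± 1.80 and 10.8% ± 2.64 of the counts in mature testis, against 1.14% ± 0.619 and 0.870% ± 0.478 in immature testis, while CACNA1G held 2.12% ± 0.516 in mature testis and 15.6% ± 2.28 in immature testis.

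The remaining 4 called alpha1 genes were close to the fold threshold. CACNA1A, the P/Q-type channel of synapses, was called higher, with 27.1, 23.6 and 28.7 CPM in the mature libraries, against 15.6, 10.3 and 11.0 CPM in the immature libraries (1.10, SE 0.20). CACNA1C, the L-type channel of heart and smooth muscle, was called lower, with 0.875, 0.938 and 0.620 CPM in the mature libraries, against 2.41, 1.81 and 1.72 CPM in the immature libraries (−1.28, SE 0.33). CACNA1E, the R-type channel (1.13, SE 0.39), and CACNA1I, a T-type channel (1.17, SE 0.43), were called higher. All 4 genes were apart between the ages, as were 81.7% of all tested genes. The log2 fold change of CACNA1A was 0.98 without immature replicate 2. CACNA1E lost its call without mature replicate 3 (0.87), immature replicate 1 (0.90) or immature replicate 2 (1.08). CACNA1I lost it without any of mature replicate 1 (1.10), mature replicate 2 (1.09), immature replicate 1 (1.19) and immature replicate 2 (0.87), and in DESeq2. With upper-quartile factors CACNA1A, CACNA1E and CACNA1I all fell short of the fold threshold. The 8 genes of the smooth and peritubular muscle list, a tissue in which CACNA1C is the main pore, summed to 541 to 575 CPM in mature libraries and 1485 to 2504 CPM in immature libraries, 6 of them were lower and 0 higher, and their part in the CACNA1C difference was not tested.

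**Figure D3:**
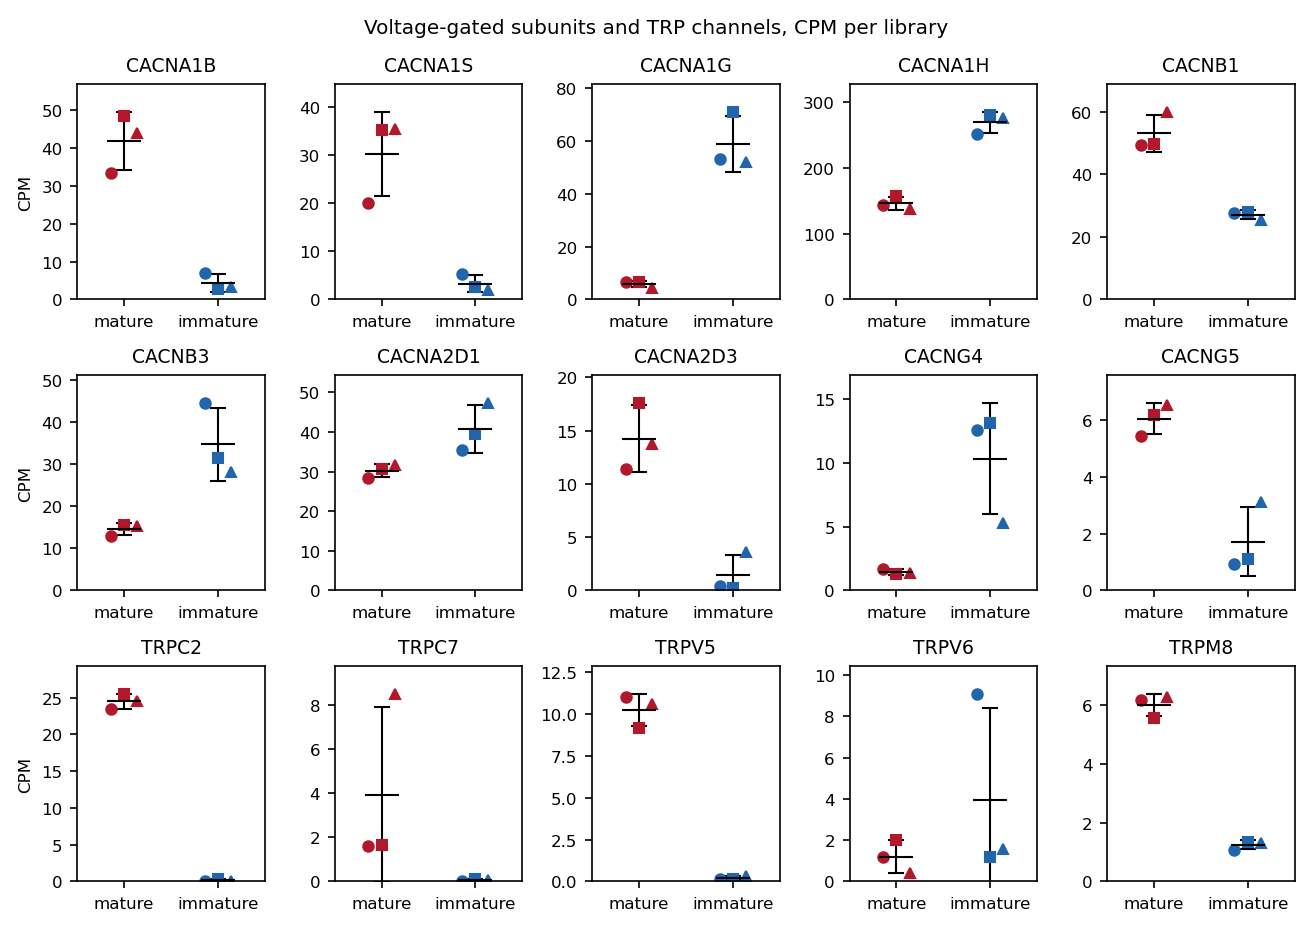
CPM (y axis, from 0) of 15 voltage-gated subunit and TRP channel genes in the 3 mature (left, red) and 3 immature (right, blue) libraries, with circles, squares and triangles for replicates 1, 2 and 3 and black bars for the mean and SD, which end at 0 where they would pass below it. CACNA1B, CACNA1S, TRPC2, TRPV5 and TRPM8 are near the bottom of their axis in immature testis and CACNA1G and CACNG4 in mature testis, while single libraries carry much of the level of CACNA2D3, TRPC7 and TRPV6 in 1 age.

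Of the 5 tested alpha2delta and beta subunits 1 rose and 1 fell, where 31.7% of all tested genes rose and 30.4% fell. CACNA2D3 passed the filter only through its mature libraries, which favours its call. CACNA2D3, an alpha2delta subunit known from neurons, rose, with 11.4, 17.6 and 13.7 CPM in the mature libraries, against 0.401, 0.259 and 3.63 CPM in the immature libraries (log2 fold change 3.31, SE 0.86, edgeR adjusted p = 0.01). Most of its immature counts came from replicate 3, and without that library the log2 fold change was 5.40. CACNA2D1, the subunit of muscle and many neurons, had 28.4, 30.7 and 31.6 CPM in the mature libraries, against 35.3, 39.6 and 47.4 CPM in the immature libraries and was not called (−0.43, SE 0.14). CACNB3, a beta subunit of smooth muscle and neurons, fell, with 12.9, 15.5 and 15.2 CPM in the mature libraries, against 44.6, 31.4 and 28.0 CPM in the immature libraries (log2 fold change −1.25, SE 0.20, edgeR adjusted p = 0.000455). CACNB1, the beta subunit of skeletal muscle, had 49.4, 49.8 and 60.0 CPM in the mature libraries, against 27.7, 28.0 and 25.3 CPM in the immature libraries, all mature values above all immature ones. At 0.97 (SE 0.13, edgeR adjusted p = 0.000166) it was just under the fold threshold, which it passed without mature replicate 1 (1.08), without mature replicate 2 (1.04), with RLE factors (1.06), in DESeq2 and with no filter. CACNB2, the beta subunit of heart, had 24.2, 30.7 and 3.92 CPM in the mature libraries, against 16.9, 17.8 and 15.0 CPM in the immature libraries. Mature replicate 3 was far below both other mature libraries, and the gene was not called (0.25, SE 0.64).

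Most gamma genes encode TARP proteins that escort AMPA-type glutamate receptors rather than calcium channels. Of the 7 gamma genes 3 passed the filter and all 3 were called, where 62.0% of all tested genes were called. CACNG2 passed the filter only through its mature libraries. CACNG4 fell, with 1.69, 1.27 and 1.38 CPM in the mature libraries, against 12.6, 13.1 and 5.29 CPM in the immature libraries (log2 fold change −2.83, SE 0.39, edgeR adjusted p = 0.000189). CACNG5 rose, with 5.44, 6.16 and 6.54 CPM in the mature libraries, against 0.936, 1.10 and 3.10 CPM in the immature libraries (log2 fold change 1.81, SE 0.45, edgeR adjusted p = 0.00533). Its highest immature value was in replicate 3, without which the log2 fold change was 2.56. CACNG2 had 12, 11 and 12 counts in the mature libraries, against 0, 3 and 0 counts in the immature libraries, a log2 ratio of summed counts of 3.55 with a 95% counting interval of 1.88 to 5.89 (edgeR adjusted p = 0.0043). All its immature counts came from replicate 2. CACNG5, CACNG4 and CACNG1 are direct neighbours in that order on chromosome 19 of the ARS-UCD2.0 assembly, so that a gene that rose stood beside a gene that fell.

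The 3 largest fold changes of all tested members were those of the TRP channels TRPC2, TRPC7 and TRPV5. All 3 passed the filter only through their mature libraries, which favours their call. In the TRPC family, TRPC2, which serves pheromone sensing in the mouse and was described there in the acrosome reaction of sperm, had 23.4, 25.5 and 24.5 CPM in the mature libraries, against 0.0669, 0.388 and 0.0661 CPM in the immature libraries (log2 fold change 7.06, SE 0.43, edgeR adjusted p = 1.32e-06). The immature libraries held only 1, 6 and 1 counts, and without immature replicate 2 the log2 fold change was 8.35. TRPC7, a channel opened by diacylglycerol, had 26, 25 and 124 counts in the mature libraries, against 0, 2 and 1 counts in the immature libraries, a log2 ratio of summed counts of 5.87 with a 95% counting interval of 4.30 to 8.16. It was called higher (edgeR adjusted p = 0.00135), but most counts came from mature replicate 3, without which the log2 fold change was 4.54. TRPC1, a subunit of mixed TRPC channels, had 9.88, 11.4 and 10.2 CPM in the mature libraries, against 12.2, 13.1 and 14.9 CPM in the immature libraries (−0.35, SE 0.17), and TRPC4 and TRPC6 were at 0.09 and −0.84 on the log2 scale. None of these 3 genes was called. TRPC6 was called lower without immature replicate 2 (−1.01). TRPC2 held 47.7% ± 3.66 of the TRPC counts in mature testis and 0.620% ± 0.683 in immature testis (SD, n = 3 each), where TRPC1 held 20.4% ± 2.30 in mature testis and 46.2% ± 2.97 in immature testis. The adaptor gene TRPC4AP was level, with 163, 146 and 159 CPM in the mature libraries, against 138, 152 and 154 CPM in the immature libraries (0.07, SE 0.10).

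Of the 6 tested TRPV and TRPA genes 1 rose and 3 fell, where 31.7% of all tested genes rose and 30.4% fell. TRPV5 and TRPA1 each passed the filter only through the age in which they were higher, which favours their call. TRPV5, an epithelial channel that is highly selective for calcium and is known from the kidney, had 11.0, 9.18 and 10.6 CPM in the mature libraries, against 0.134, 0.129 and 0.330 CPM in the immature libraries (log2 fold change 5.64, SE 0.37, edgeR adjusted p = 2.17e-06). TRPV6, its closest relative, known from the gut, lies beside TRPV5 on chromosome 4 of the same assembly but was not called with it. It had 1.19, 2.01 and 0.413 CPM in the mature libraries, against 9.09, 1.16 and 1.59 CPM in the immature libraries (−1.70, SE 0.90, edgeR adjusted p = 0.119). Without immature replicate 1 the log2 fold change of TRPV6 was −0.20, and the part of epithelium in its values was not tested. Because both genes are close copies, reads that match both could have been split between them or dropped in counting. TRPV2, known from macrophages and sensory neurons, fell, with 2.63, 1.81 and 1.51 CPM in the mature libraries, against 8.29, 7.83 and 5.35 CPM in the immature libraries (log2 fold change −1.84, SE 0.31, edgeR adjusted p = 0.000628). TRPA1, a sensor of irritants, fell too, with 8, 20 and 12 counts in the mature libraries, against 32, 41 and 80 counts in the immature libraries (−1.91, SE 0.49). TRPV3, a sensor of warmth in skin, had 0.813, 0.670 and 1.24 CPM in the mature libraries, against 2.41, 4.20 and 1.12 CPM in the immature libraries. It was called lower although the ages overlapped (−1.50, SE 0.51, edgeR adjusted p = 0.0251), and lost the call in limma-voom and without mature replicate 1 (−1.37, edgeR adjusted p = 0.0911), mature replicate 2 (−1.30, edgeR adjusted p = 0.095) or immature replicate 2 (−0.96). TRPV4, an osmosensor, had 5.38, 6.56 and 4.06 CPM in the mature libraries, against 5.68, 1.55 and 0.727 CPM in the immature libraries. It was not called (1.01, SE 0.66, edgeR adjusted p = 0.191). Only immature replicate 1 reached the mature range, and without it TRPV4 was called higher (2.20, edgeR adjusted p = 0.00158).

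Of the 8 TRPM genes 3 rose and 2 fell, where 31.7% of all tested genes rose and 30.4% fell. The libraries of the ages did not overlap for any of the 8, where 81.7% of all tested genes did not overlap. TRPM8, the cold and menthol channel, had 6.19, 5.56 and 6.26 CPM in the mature libraries, against 1.07, 1.36 and 1.32 CPM in the immature libraries (log2 fold change 2.26, SE 0.26, edgeR adjusted p = 6.17e-05). TRPM1, known from the retina and pigment cells, had 7.25, 5.36 and 4.27 CPM in the mature libraries, against 0.735, 1.62 and 2.05 CPM in the immature libraries (log2 fold change 1.93, SE 0.40, edgeR adjusted p = 0.00216). TRPM3, a heat and steroid sensor, had 65.6, 84.0 and 75.1 CPM in the mature libraries, against 53.3, 21.7 and 27.9 CPM in the immature libraries (1.13, SE 0.32). Immature replicate 1 came nearest to the mature range of TRPM3, and the call was lost without immature replicate 2 (0.88) or immature replicate 3 (1.00). TRPM5, known from taste cells, fell, with 1.00, 0.871 and 1.10 CPM in the mature libraries, against 4.88, 5.82 and 6.67 CPM in the immature libraries (log2 fold change −2.54, SE 0.28, edgeR adjusted p = 5.01e-05). TRPM2, a channel opened by ADP-ribose and known from leukocytes, fell as well, with 13.3, 11.7 and 9.57 CPM in the mature libraries, against 39.4, 38.9 and 33.9 CPM in the immature libraries (log2 fold change −1.69, SE 0.17, edgeR adjusted p = 2.24e-05). The 8 leukocyte markers summed to 112 to 124 CPM in mature libraries and 124 to 217 CPM in immature libraries, 6 of them were lower and 1 higher, and their part in the TRPM2 and TRPV2 differences was not tested. TRPM5 and its relative TRPM4, both opened by cytosolic calcium to pass monovalent ions, had fold changes of opposite sign. TRPM4 had 46.3, 42.9 and 40.0 CPM in the mature libraries, against 20.7, 24.5 and 24.5 CPM in the immature libraries, under the fold threshold (0.89, SE 0.13, edgeR adjusted p = 0.000314). The magnesium-carrying channel kinases did likewise: TRPM7 had 39.0, 38.6 and 32.1 CPM in the mature libraries, against 71.0, 67.7 and 73.1 CPM in the immature libraries (−0.95, SE 0.12, edgeR adjusted p = 0.000131), and TRPM6 was at 0.59 (SE 0.23, edgeR adjusted p = 0.0404). Neither was called.

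**Figure D4:**
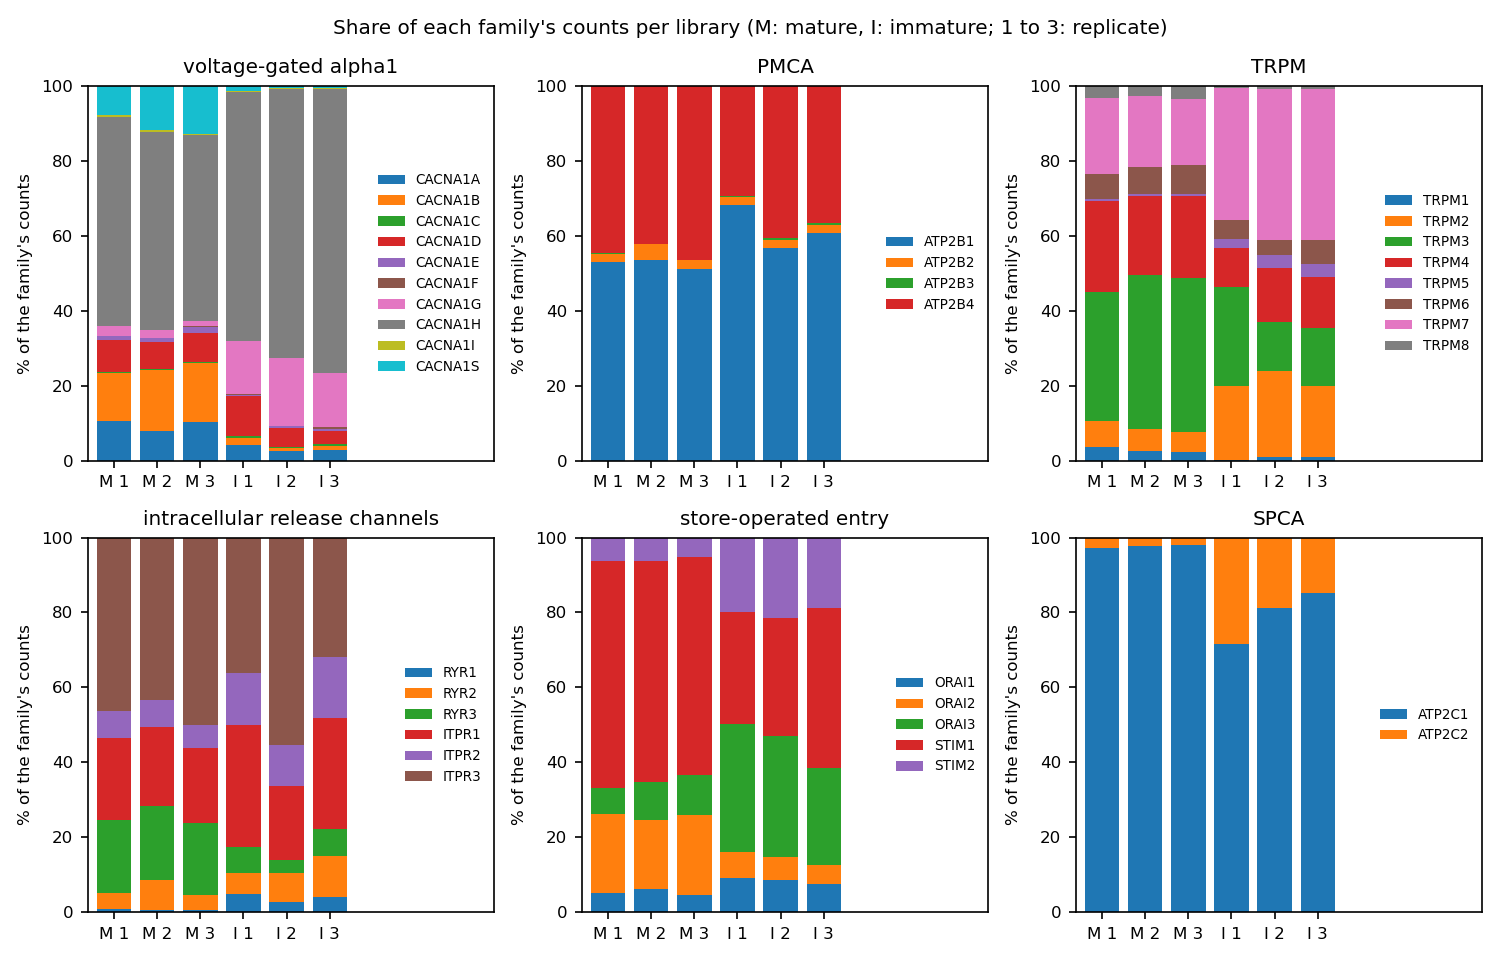
Share of the counts of 6 families taken by each member (y axis, % of the counts of the family) in each library, mature (M) left of immature (I), not corrected for transcript length. CACNA1B, CACNA1S, ORAI2, STIM1 and RYR3 take a larger share in every mature library, and CACNA1G, CACNA1H, ORAI3, STIM2 and ATP2C2 in every immature library.

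Of the 69 members 9 did not pass the filter on low counts. TRPV1, the capsaicin receptor, had 1, 124 and 80 counts in the mature libraries, against 0, 2 and 2 counts in the immature libraries. It was high in 2 of the 3 mature libraries and at the immature level in the other. TRPV3, which adjoins TRPV1 on chromosome 19 of the same assembly, did not share this pattern. CACNG7, a TARP, had 4, 5 and 5 counts in mature and 7, 28 and 28 counts in immature libraries, and CACNG1, the gamma subunit of skeletal muscle, had 1, 0 and 0 counts in mature and 5, 4 and 2 counts in immature libraries. CACNA2D4, an alpha2delta subunit of the retina, had 12, 4 and 20 counts in mature and 4, 2 and 5 counts in immature libraries, CACNA2D2 had 1, 1 and 6 counts in mature and 0, 0 and 0 counts in immature libraries, and CACNG3 had 7, 2 and 1 counts in mature and 1, 0 and 1 counts in immature libraries. CACNB4, CACNG6 and TRPC5 had at most 6 counts in either age. For TRPC5 all counts, 3, 1 and 1, were in immature libraries. With no filter TRPV1, CACNA2D2 and CACNA2D4 were called higher (edgeR adjusted p = 0.0387, 0.0442 and 0.0457). CACNG7 and CACNG1 were then called lower (edgeR adjusted p = 0.0105 and 0.0375). Apart from that of TRPV1 these calls rest on few counts, and TRPV1 and CACNA2D4 overlapped between the ages. Without mature replicate 1, the mature library that had almost no TRPV1 counts, TRPV1 passed the filter. It was then called higher (log2 fold change 6.23, edgeR adjusted p = 0.000162). TRPC5OS, on the opposite strand of the same locus, had 1.38, 1.74 and 1.38 CPM in the mature libraries, against 0.602, 0.841 and 1.06 CPM in the immature libraries and was not called (0.84, SE 0.35, edgeR adjusted p = 0.0514; called without immature replicate 3, at 1.04). Since the sources used here do not state the strand setting of the counting, reads of TRPC5 and TRPC5OS may not have been told apart.

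Other genes of calcium handling, in 8 lists beside the members, showed a like mixture. Of 78 such genes 76 were in the table and 70 were tested, with 21 higher and 25 lower (65.7% called, against 62.0% of all tested genes), with a median log2 value of −0.13. Of the calcium-binding proteins and chaperones of the endoplasmic reticulum, 3 of 11 rose and 5 fell. CALR3, the testis form of calreticulin, had 176 ± 3.56 CPM in mature testis and 0.636 ± 0.322 CPM in immature testis (SD, n = 3 each; log2 fold change 8.09, SE 0.27), and CLGN, the testis chaperone calmegin, had 2031 ± 109.5 CPM in mature testis and 168 ± 41.7 CPM in immature testis. CASQ2 rose (3.74, SE 0.48) and CASQ1 fell (−2.66, SE 0.16), the calsequestrins of heart and skeletal muscle. RCN1 (−2.65, SE 0.17) and RCN3 (−2.47, SE 0.17), calcium-binding reticulocalbins, fell too. Among the 7 tested sodium-calcium exchangers 3 rose and 1 fell: SLC24A3 (3.48, SE 0.31) and SLC24A1 (3.41, SE 0.25), which also move potassium, and SLC8A3 (1.62, SE 0.32) rose, and SLC8B1, the exchanger of mitochondria, fell (−1.51, SE 0.18). Of the mitochondrial uniporter complex 2 of 6 rose, the pore MCU (1.78, SE 0.19) and its regulator MICU3 (1.24, SE 0.18), and 0 fell.

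Regulators and related genes went both ways as well. Of 11 tested genes listed as regulators of voltage-gated and related channels 5 rose and 5 fell, where 31.7% of all tested genes rose and 30.4% fell. The list also holds channels, NALCN, which rose, and CALHM2, which fell. STAC2, an adaptor of L-type channels (4.40, SE 0.29), and UNC80 (2.73, SE 0.20) and UNC79 (1.81, SE 0.26), partners of the sodium leak channel NALCN, rose. CALHM2, a large-pore channel (−3.29, SE 0.34), and RRAD (−3.09, SE 0.39) and REM1 (−2.16, SE 0.23), small GTPases that inhibit high-voltage channels, fell. Of the 7 regulators of SERCA and store-operated entry 4 fell and 0 rose, with CRACR2B, a cytosolic regulator of ORAI1, at −1.90 (SE 0.28), PLN, the inhibitor of SERCA in heart, at −1.16 (SE 0.45), and TMBIM6, a calcium leak protein of the endoplasmic reticulum, at −1.10 (SE 0.10). PLN had 8.38, 10.2 and 8.61 CPM in the mature libraries, against 8.09, 32.5 and 20.1 CPM in the immature libraries, so the ages overlapped and immature replicate 2 was the highest (edgeR adjusted p = 0.0439). Of 7 membrane junction proteins JPH4 (3.07, SE 0.25) and TRDN, or triadin (2.53, SE 0.70), rose and 0 fell. PKD2L2 (5.32, SE 0.39) and PKD2L1 (2.44, SE 0.32) rose among the other TRP-type channels, and PKD2 (−2.77, SE 0.17) and MCOLN1, a lysosomal channel (−1.29, SE 0.19), fell. Of the 14 genes for calmodulin and its kinases 4 rose and 8 fell. CALM3 (2.27, SE 0.10), CAMK4, a kinase of spermatids and neurons (2.11, SE 0.22), and CALM (2.02, SE 0.20) rose, while CAMKK2 (−2.59, SE 0.15), CAMK1G (−2.44, SE 0.38) and CAMK2D (−2.11, SE 0.17) fell. The calmodulin genes encode the same protein and share sequence, so counts could be split between them.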

How the data were processed

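The deposited mRNA table holds raw counts, 1 row per gene and 1 column for each of 6 libraries, 3 per age. To make it the authors used Fast-QC on the reads and Hisat2 for alignment, with Btau_5.0.1 as the genome. The sources used here do not give the tool versions, the gene annotation, or the read counter and its strand setting. The authors' comparison tables, which hold group signals, fold changes and FDR values, and the small RNA counts were not used, and 0 count columns of the gene table were left out. The main test was edgeR 4.0.16 under R 4.3.3 (TMM, filterByExpr, robust quasi-likelihood test; the study used EBSeq), which tested 19972 genes with Benjamini-Hochberg adjustment over all of them. Each SE was the log2 fold change divided by the root of its F statistic. Calls used the fold and FDR thresholds of the study. Library totals ran from 14139087 to 15846257 counts, and chi-square values between libraries of an age ran from 10.4 to 42.6 per degree of freedom, so no library was a repeat of another. Intervals on summed counts are exact binomial and cover counting error only.

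All 69 members matched a symbol in RefSeq (ARS-UCD2.0), which was used for gene order only, since it is another assembly. Members, families and lists were chosen with earlier results of these data known. Values per library are given for called members at 1 CPM or more in the higher age (up to 4 per family by size of change), the member with the highest CPM of each family and age, and members with no call at 10 CPM or more in both ages. Values of further members, such as TRPV4, TRPV6 and those that did not pass the filter, were added after they had been seen. Values of 1 tested member are not reported here. Of the other lists up to 3 called genes per direction were named. Alternatives were RLE, upper-quartile and no factors, the 50 most abundant genes left out, DESeq2 1.42.0, limma-voom 3.58.1, no filter, 1 CPM in 3 libraries, no fold threshold, each library left out and the replicate number as a block. The fits were also run on simulated counts with 200 changed genes and 1 dispersion for all genes. Far more genes were called in the real data, so that run does not bear on the scaling or the calls here.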

Additional observations from a re-analysis of the deposited data

How the results depend on the processing

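Over the 16 alternative settings the number of members called higher in mature testis ran from 15 to 23 (19 in the reported fit) and of those called lower from 15 to 24 (17). Without 1 library at a time it ran from 16 to 21 and from 16 to 18, and the other calcium genes gave 21 to 23 higher and 22 to 26 lower. All genes gave 6398 to 6657 higher and 5743 to 6281 lower without 1 library. Of the 36 called members, 30 kept their call in each of the 16 settings that could test them and all 36 kept their direction. The exceptions were TRPM3, TRPV3, CACNA1A, CACNA1E, CACNA1I and ATP2B2. Of the 16 settings 1, with no fold threshold, reused the reported fit, so no called member could lose its call or direction there. Upper-quartile factors moved the median of all genes by −0.20 on the log2 scale. Under them 15 members were higher and 23 lower, the added calls being TRPC6, TRPM7, CACNA1H, ORAI3, RYR2 and STIM2. A filter of 1 CPM in 3 libraries left 56 members tested. With only immature replicate 2 kept of its age, an alternative chosen after seeing the data, in which that library is assumed to vary like the mature ones, 18 members were higher and 18 lower, and TRPC7, CACNG2, CACNA1C, CACNA1F and CACNA1E lost their call. The replicate numbers do not pair the animals. Deviations of libraries with the same number correlated at −0.03, −0.02 and −0.02, and with the replicate number as a block 18 members were called higher and 16 lower, TRPV3 and CACNA1I being lost. Members below about 1 CPM rest on few counts, and their differences were near the limit of detection at this depth.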
